A study of Mus musculus with 12 samples.

Results

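Long intergenic noncoding RNAs (lincRNAs) are transcripts of genes that lie between protein-coding genes and carry no long open reading frame. The 15 genes described here are the autosomal rows of the authors' deposited blastocyst table with the gene type lincRNA and a mean of at least 50 normalised counts, without the imprinted H19, Meg3, Rian and Mirg. They were taken from 2753 autosomal lincRNA rows, 430 of which had a mean above 0, in a table of 45706 genes. Gm26917 meets the same rule and is described apart, beside a few rows of very high mean that include ribosomal RNA genes. Members were chosen by that mean, a measured value, so their levels are a description and are not tested.

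The series compared Dis3L KO with Dis3L WT mouse embryos and embryonic stem (ES) cells, with 3 samples in each of 4 groups. Dis3l encodes a nuclease of the exosome in the cytoplasm, a complex that digests RNA from the 3′ end. The 6 blastocyst libraries each came from a single embryo collected 96 h after hCG from females induced to ovulate with PMSG and hCG, and were made by Tn5 tagmentation of cDNA and PCR. The labels give neither the strain, nor the sex of the embryos, nor how the Dis3L KO allele was made. The ES cell table holds 13009 rows and 0 of them are noncoding, so the lincRNAs are described in blastocysts only.

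Several of these RNAs have known roles. Neat1 is the scaffold of paraspeckles, nuclear bodies built on one long RNA, and Malat1 is retained in nuclear speckles. Malat1 and the long form of Neat1 are cleaved at the 3′ end instead of being polyadenylated, and a triple helix of U-rich and A-rich stretches protects that end from exonucleases. Small nucleolar RNA hosts such as Snhg6 carry a small guide RNA in an intron, and many of them start with a pyrimidine run and are cleared in the cytoplasm once ribosomes reach them. 1700020I14Rik, also called Cyrano or Oip5os1, holds a site of near-complete pairing to the microRNA miR-7, and Lincenc1 (Lncenc1) was named for its abundance in ES cells.

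The sequences that tie these members to RNA stability are shown here because the study concerns an RNA-degrading complex. They were read from GENCODE M21 transcripts on GRCm38 and are written 5′ to 3′. In the 2 nuclear RNAs the capitals mark the 3 stretches of at least 10 bases that both 3′ regions share in one order. The first and second hold the U-rich motifs and the last the A-rich tract. The Malat1 element lies at chr19:5795982-5796070 on the minus strand, near the 3′ end of Malat1's 6983-base single exon, and the Neat1 element at chr19:5824708-5824802 on the minus strand is the end of the 20771-base single exon of the long form.
Malat1 element: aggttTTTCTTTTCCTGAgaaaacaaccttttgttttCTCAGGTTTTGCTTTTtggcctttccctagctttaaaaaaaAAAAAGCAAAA
Neat1 end: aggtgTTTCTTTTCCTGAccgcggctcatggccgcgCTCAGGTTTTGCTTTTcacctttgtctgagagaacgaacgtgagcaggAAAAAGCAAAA
The stretches TTTCTTTTCCTGA, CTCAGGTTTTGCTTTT and AAAAAGCAAAA, in this order on the transcript strand with at most 60 bases between neighbours, were found in the longest transcript of 2 of 55450 genes (0.00361%), which are Malat1 and Neat1. The stretches were copied from these 2 RNAs, so both hits were fixed in advance. Triple helices of other sequence were not counted.

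In 1700020I14Rik the miR-7 site lies in an exon at chr2:119602137-119602161 on the plus strand, at positions 2935 to 2959 of its 8300-base transcript. Its capitals face bases 2 to 8 of the microRNA, the seed, which is in capitals in the mature sequence from RefSeq (GRCm38.p6).
1700020I14Rik site: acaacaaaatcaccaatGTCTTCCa
mmu-miR-7a-5p: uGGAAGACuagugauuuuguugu
The site pairs with 13 bases at the 3′ side of the microRNA and 8 at the seed side, with 4 unpaired bases in the site and 2 in the microRNA. The 13 letters acaacaaaatcac followed within 10 bases by GTCTTCCA, searched on the transcript strand, occurred in 1 of 55450 genes (0.0018%). The number of letters was set by the match in 1700020I14Rik, so its own hit was fixed in advance. Sites with other pairing to miR-7 were not counted. The first 40 bases of a 473-base Snhg6 transcript, at chr1:9944079-9944118 on the minus strand, begin with a run of 7 pyrimidines, in capitals.
Snhg6 start: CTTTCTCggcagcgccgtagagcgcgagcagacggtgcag
Of 141767 transcripts, 0.489% begin with CTTT, the first bases of this run. Starts with other pyrimidine runs were not counted.

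No lincRNA in the set passed the adjusted threshold between Dis3L KO and Dis3L WT blastocysts. The authors' deposited table gave 0 of 15 members an adjusted p-value under 0.05, against 15 of 15209 tested genes (0.0986%), and the lowest adjusted p-value among the members was 0.613 by their Wald test. Before adjustment, 2 of the 14 members with a p-value, C330006A16Rik and AI662270, had p under 0.05, and both had negative log2 fold changes. That is 14.3% of the members tested, beside 7.08% of the 7175 tested autosomal genes with a mean of at least 50, of which 3.87% were also negative, and beside 6.21% of all tested genes. C330006A16Rik and AI662270 reached the minimum mean of 50 only through the negative side. By the recovered reads described below, their side means were 25.5 against 91.4 and 33.8 against 104, positive side first. The minimum mean thus took part in choosing these differences, and their count is a description only. 4930516B21Rik reached it only through the positive side, with 70.0 against 34.5. The members' median log2 fold change was 0.38 in the authors' deposited table and 10 of 15 were positive, where the median of those 7175 genes was 0.0033 and 50.3% were positive. The members' median rested on few libraries and on the threshold. From the reads recovered for 13 members, described next, it was 0.39, and it fell to 0.086 without negative-side column 3 and 0.17 without positive-side column 3, while a minimum mean of 20 gave 0.19 over 35 lincRNAs.

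Neither the table nor the labels state which genotype is the numerator, so a positive log2 fold change means a higher level on what is called the positive side here. The table holds no value per library. For 13 of the 15 members, the whole reads behind the authors' mean and fold change were recovered in 6 count columns, 3 on each side. The columns could not be assigned to a sample or a genotype and no test was run across them. The positive-side columns had size factors of 1.40, 0.985 and 0.875 and the negative-side columns 1.62, 0.897 and 0.695. A size factor is the relative depth of a library. Of the 78 recovered counts of members 73 were even numbers, so the number of cDNA fragments behind a count may be lower than the count. Reads behind means above 1200 were not recovered, which leaves out Yam1 and Gm4926.

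Dis3l itself had a mean of 8.14 in the authors' deposited table, with a log2 fold change of 0.28 (standard error 1.91, adjusted p 0.997, Wald test). Its recovered reads were 26, 8 and 0 on the positive side, against 10, 4 and 8 on the negative side. A 0 allows up to 3 reads if reads are independent, and as most counts were even, this limit may be too low. Both sides held reads of the gene, and whether they come from the part that was deleted cannot be told from these values.

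**Figure D1:**
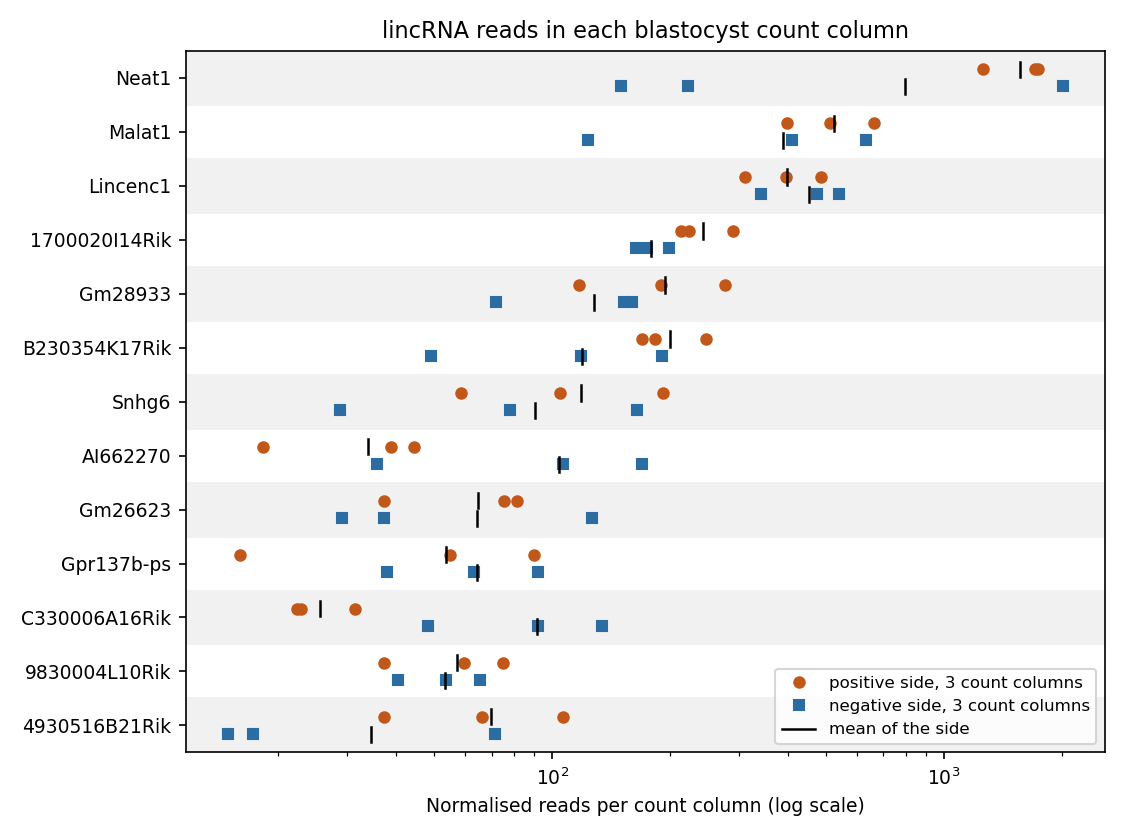
Normalised reads of the 13 members with recovered reads on a log scale, with 1 point per count column: circles for the 3 positive-side columns, squares for the 3 negative-side columns, and a bar at each side's mean. The sides lie apart for 1700020I14Rik and C330006A16Rik, and Neat1 runs from 150 to 2016.

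Levels spanned a wide range. In the authors' deposited table the means ran from 52.2 (4930516B21Rik) to 14189 (Yam1), with a median of 159. Per kilobase of all annotated exon, a rough scale, Yam1 had 7749 normalised counts, Gm4926 1841, Lincenc1 129, Snhg6 91.2, Gm26623 75.8, Malat1 65.4 and Neat1 56.9. The remaining members in GENCODE M21 lay between 12.5 (Gpr137b-ps) and 43.7 (4930516B21Rik) normalised counts per kilobase of exon. Neat1 and Malat1 have more counts than Lincenc1 and Snhg6, but fewer per kilobase. Neat1 was divided by its full 20.8 kb of annotated exon. Which transcript forms the reads came from, and how evenly they cover the exons, is not known. The order per kilobase is therefore not an order of transcript numbers. Single embryos hold few cells, and in these libraries fewer cells of a type and less RNA per cell cannot be told apart.

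Neat1 (ENSMUSG00000092274, chromosome 19, 5824708 to 5845478) had the widest spread between columns of the 13. Its reads were 1764, 1716 and 1494 in positive-side columns, against 360, 1808 and 104 in negative-side columns. After normalisation these are 1259, 1742 and 1707 against 223, 2016 and 150 normalised reads, a ratio of 13.5 between the highest and the lowest. The positive-side columns are alike, whereas on the negative side one column is the highest of all 6 and the other two are the lowest, so the sides overlap. The authors' deposited table gave a log2 fold change of 0.98 (standard error 1.09) and no p-value, as for 47 genes with a mean above 0. Leaving out negative-side column 2 moved the log2 ratio of side means from 0.98 to 3.08, and leaving out negative-side column 1 or 3 moved it to 0.54 or 0.49.

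The standard error of Neat1 was 3.62 times the median of 442 other autosomal genes whose mean was within a factor of 1.5 of its own, and 2 of those genes had a larger one. Of 13 paraspeckle protein genes, 0 passed adjustment in the authors' deposited table and 1 had p under 0.05, Rbm14, with a log2 fold change of −1.04 (Wald p 0.0116, adjusted p 0.60). Their median was −0.0033, and the core members Nono and Sfpq had log2 fold changes of −0.15 and −0.18 in the authors' deposited table.

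Malat1 (ENSMUSG00000092341, chromosome 19, 5795690 to 5802672), which lies next to Neat1 on the same strand, had 397, 512 and 663 normalised reads in positive-side columns, against 410, 633 and 124 in negative-side columns. Negative-side column 3 is again the lowest, and the sides overlap. The authors' deposited table gave a log2 fold change of 0.43 (standard error 0.49, Wald p 0.386, adjusted p 0.892). Without negative-side column 3 the log2 ratio was 0.0058, so the difference between the side means rests on that column, and without negative-side column 2 it was 0.97.

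Lincenc1 (ENSMUSG00000078952, chromosome 13, 97434970 to 97497007) was the steadiest across columns of the 13 members with recovered reads. Its normalised reads were 311, 487 and 395 on the positive side, against 539, 341 and 475 on the negative side, a ratio of 1.74 between the highest and the lowest. The sides overlap, and the authors' deposited table gave a log2 fold change of −0.19 (standard error 0.36, Wald p 0.604, adjusted p 0.968). Leaving out 1 column kept the log2 ratio between −0.36 and −0.034.

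1700020I14Rik (Cyrano; ENSMUSG00000085438, chromosome 2, 119594297 to 119607502) was nearly as even, with a ratio of 1.77. It had 213, 290 and 224 normalised reads in positive-side columns, against 174, 198 and 164 in negative-side columns. Every positive-side column lies above every negative-side column, but by a narrow margin. The authors' deposited table gave a log2 fold change of 0.44 with a 95% Wald interval from −0.36 to 1.24 (p 0.285, adjusted p 0.811), so the difference did not pass the test. Without positive-side column 2 the log2 ratio was 0.29. Sides that did not overlap were seen in 2 of the 13 members, beside 12.6% of 1967 genes of any type with a mean of 50 to 100 whose reads were recovered in the same way. Of the 6 members within that range of means, 1 had separate sides.

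C330006A16Rik (Tmem250-ps in GENCODE M21; ENSMUSG00000087679, chromosome 2, 26136814 to 26140521) is the other member with separate sides. Its row overlaps that of 1810012K08Rik, a lincRNA with a mean of 0, and 369 bases match a GENCODE M21 transcript of that gene at 100% identity. C330006A16Rik lies 13594 bases from Nacc2, the nearest coding gene. Its reads were 44, 22 and 20 in positive-side columns, against 78, 120 and 64 in negative-side columns, or 31.4, 22.3 and 22.9 against 48.2, 134 and 92.1 normalised reads. All 3 negative-side columns are the higher ones. The authors' deposited table gave the lowest log2 fold change of the members, −1.83 (standard error 0.74, Wald p 0.0128, adjusted p 0.613). Leaving out any one column kept the log2 ratio between −2.15 and −1.46.

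AI662270 (ENSMUSG00000087107, chromosome 11, 83223576 to 83226604), which lies 8422 bases from Slfn3, had 62, 18 and 34 reads in positive-side columns, against 274, 32 and 74 in negative-side columns. Normalised, these are 44.3, 18.3 and 38.9 against 169, 35.7 and 106. Negative-side columns 1 and 3 are high, while negative-side column 2 falls among the positive-side values. The authors' deposited table gave a log2 fold change of −1.62 (standard error 0.77, Wald p 0.0354, adjusted p 0.769). Without negative-side column 1 the log2 ratio was −1.07. GENCODE M21 types the gene as a processed transcript, and 491 bases of it match a Gm11427 transcript of that annotation at 100% identity. The rows of both genes in the authors' table do not overlap.

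C330006A16Rik and AI662270 had their lower means on the positive side, where markers of the inner cell mass, the cells of the blastocyst that form the embryo proper, were also lower in sum. Of 8 inner cell mass genes, 3 had p under 0.05 in the authors' deposited table, all negative: Tdgf1 (log2 fold change −1.75, Wald p 0.000459, adjusted p 0.205), Nanog (−1.93, Wald p 0.00863, adjusted p 0.546) and Pou5f1 (−1.21, Wald p 0.0124, adjusted p 0.609). Such a p with a negative sign was held by 3.87% of autosomal genes with a mean of at least 50. Klf2 had −1.28 and Klf4 −0.53, while Fgf4 at 0.10, Sox2 at 0.026 and Esrrb at 0.0033 were near 0, and none of these 5 had p under 0.05. Summed over the 8 genes, all detected, the normalised reads were 1396, 768 and 486 in positive-side columns, against 1894, 1452 and 2057 in negative-side columns. The sides of this sum do not overlap, but of the single genes this holds for Tdgf1 and Klf2 only, 2 of 8, beside 12.6% of genes with a mean of 50 to 100. Tdgf1 and Klf2 have means of 282 and 109, above that range, and the sides of Sox2 and Fgf4, within it, overlap. Sox2, for example, had 136, 36.5 and 77.7 normalised reads on the positive side, against 49.5, 114 and 83.4 on the negative side, and the columns of Esrrb and Fgf4 overlap too. The part of these cells in the lincRNA differences was not tested.

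Of 8 trophectoderm genes, which mark the outer layer, 1 had p under 0.05 and a positive log2 fold change in the authors' deposited table, where 4 of the 8 were positive (Gata3, 0.52, Wald p 0.0419) and 2 had negative ones (Krt8, −0.87, Wald p 0.0146, and Krt18, −0.63, Wald p 0.0289), and 0 passed adjustment. All 8 had means from 336 to 7678, so the defining markers of this layer were present. Of 7 primitive endoderm genes, 6 had a p-value and 1 had p under 0.05, Sox7 (3.27, Wald p 0.00226, adjusted p 0.349). The median log2 fold change of those 6 was −0.12, and 2 of them were positive. All 8 granulosa and cumulus cell markers were listed with a mean of 0, where a count of 0 allows up to 3 reads if reads are independent. Of 6 fibroblast markers 4 were at 0 and the highest, Pdgfrb, had a mean of 37.7.

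Gm4926 (ENSMUSG00000086909, chromosome 11, 46636516 to 46645006) was the most abundant member outside ribosomal DNA. Its mean of 2964 normalised counts ranked 75th of all genes in the authors' deposited table, ahead of Neat1 at rank 325. The gene has 5 exons on the minus strand and lies 7255 bases from Dppa1, a gene expressed in early embryos. Its log2 fold change was the highest of the members, 1.94 (standard error 1.46, Wald p 0.184, adjusted p 0.811) in the authors' deposited table. That standard error was 5.33 times the median of 93 autosomal genes of a like mean, and 0 of them had a larger one. Dppa1, with a mean of 820, had a log2 fold change of 0.088 (standard error 0.35). The members apart from Gm4926 and Neat1 had standard errors between 0.85 and 1.31 times the median of their like genes.

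**Figure D2:**
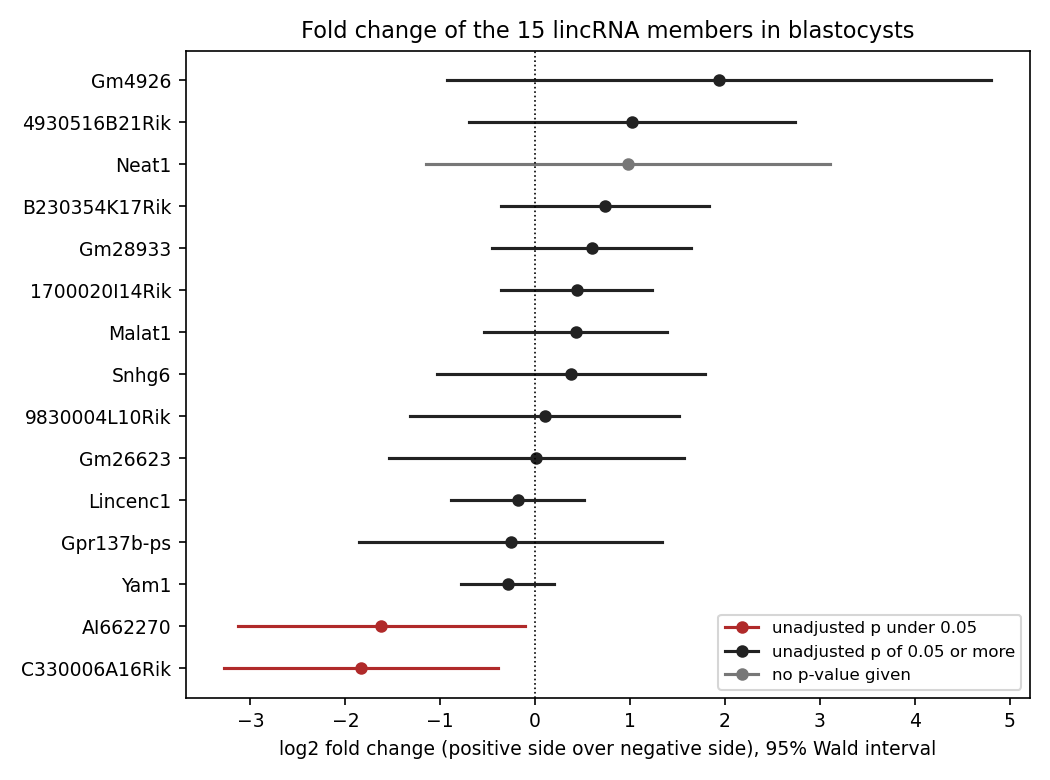
Log2 fold change of each of the 15 members from the authors' deposited table (points), with 95% Wald intervals (lines). The intervals of C330006A16Rik and AI662270 lie below 0, all others cross 0, and Gm4926 has the widest, from −0.92 to 4.81.

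Snhg6 (ENSMUSG00000098234, chromosome 1, 9941959 to 9944118) overlaps Mcmdc2 and carries Snord87, a guide for modification of ribosomal RNA. Its normalised reads were 58.5, 105 and 192 on the positive side, against 77.9, 165 and 28.8 on the negative side. The columns of the sides interleave, with the lowest on the negative side. Tagmented cDNA does not mark strand, so reads of Snhg6 and of Mcmdc2, which is on the opposite strand, cannot be told apart where they overlap. The authors' deposited table gave a log2 fold change of 0.38 (standard error 0.72, Wald p 0.596, adjusted p 0.966), and leaving out 1 column moved the log2 ratio of 0.39 in both directions. It was −0.15 without positive-side column 3 and −0.038 without negative-side column 3, but 1.15 without negative-side column 2 and 0.71 without positive-side column 1.

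Of the small nucleolar RNA hosts of any gene type, 22 of 25 rows were tested in the authors' deposited table and 0 passed adjustment. The only one with p under 0.05 was Hspa8, a chaperone gene that is translated (log2 fold change −0.80, Wald p 0.00311, adjusted p 0.385). Their median log2 fold change was 0.099 and 12 of 22 were positive. The noncoding host Gas5, with a mean of 193, had 0.33 (standard error 0.58) in the authors' deposited table, and the lincRNA host Snhg20, whose mean of 35.4 left it outside the set, had −1.38 (standard error 0.90).

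Gm28933 (chromosome 12, 99190078 to 99191484), which has no entry in GENCODE M21, had 117, 276 and 190 normalised reads on the positive side, against 160, 153 and 71.9 on the negative side. B230354K17Rik (chromosome 17, 45433852 to 45442544) lies 145 bases from Cdc5l, a splicing factor gene, is typed in GENCODE M21 as a transcript from a bidirectional promoter, and shares 982 bases with a Spats1 transcript of that annotation. It had 247, 183 and 169 normalised reads on the positive side, against 190, 118 and 48.9 on the negative side. Both genes are lowest in negative-side column 3 and their sides overlap. Their log2 fold changes in the authors' deposited table were 0.59 (standard error 0.54, Wald p 0.267) and 0.74 (standard error 0.56, Wald p 0.188), while Cdc5l had −0.32 (standard error 0.37). The log2 ratio of Gm28933 was 0.26 without positive-side column 2 and 0.32 without negative-side column 3, and that of B230354K17Rik was 0.37 without negative-side column 3 and 1.26 without negative-side column 1.

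4930516B21Rik (chromosome 9, 119440278 to 119444830) lies 93 bases from Exog, which encodes a mitochondrial nuclease. Its normalised reads were 37.1, 107 and 66.3 on the positive side, against 14.8, 71.4 and 17.3 on the negative side. Negative-side columns 1 and 3 are the lowest, as in Neat1, and column 2 falls among the positive-side values. The log2 fold change in the authors' deposited table was 1.02 (standard error 0.88, Wald p 0.244), against −0.17 for Exog. Without negative-side column 2 its log2 ratio was 2.12, and without positive-side column 2 or negative-side column 1 it was 0.58 or 0.66.

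The low-level members Gm26623, Gpr137b-ps and 9830004L10Rik showed no separation. 9830004L10Rik (chromosome 1, 80184719 to 80192073) had 37.1, 75.1 and 59.4 normalised reads against 65.6, 53.5 and 40.3, and a log2 fold change of 0.10 (standard error 0.72) in the authors' deposited table. Gm26623 (chromosome 12, 83620210 to 83621174) had 37.1, 81.2 and 75.4 against 37.1, 29.0 and 127, and a log2 fold change of 0.014 (standard error 0.79). Gpr137b-ps (chromosome 13, 12619084 to 12650297) had 89.9, 54.8 and 16 against 63.1, 37.9 and 92.1, and a log2 fold change of −0.26 (standard error 0.81) in that table. Leaving out 1 column turned the sign in all 3 genes. Without negative-side column 3 the log2 ratio became 0.97 for Gm26623, 0.086 for Gpr137b-ps and −0.057 for 9830004L10Rik. Gm26623 reached −0.34 without negative-side column 2, Gpr137b-ps ran from −0.86 without positive-side column 1 to 0.17 without positive-side column 3, and 9830004L10Rik from −0.14 without positive-side column 2 to 0.34 without positive-side column 1.

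Both Gm26623 and Gpr137b-ps resemble coding genes, so their levels are uncertain. Gm26623 matches the histone variant gene H2afz, whose mean was 652, at 97.5% identity over 708 bases. Gpr137b-ps, a pseudogene in GENCODE M21, matches Gpr137b, whose mean was 65.4, at 97.4% over 1966 bases. How reads that fit both copies were counted is not given in the sources used here.

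The lowest value of a member fell more often in one column than in the others. Negative-side column 3 was the lowest of the 6 in 6 of 13 members (Neat1, Malat1, 1700020I14Rik, Gm28933, B230354K17Rik and Snhg6). All 6 have means above 100. Among the 6 members with a mean of 50 to 100 it was the lowest in 0, beside 17.8% of the 1967 genes of any type in that range, and genes of higher mean were not counted. That column has the smallest size factor of the 6. It was also the highest column for 2 members, Gm26623 and Gpr137b-ps. The members share these libraries, and no test was run on the count. With all columns 9 of the 13 members had a positive log2 ratio, and 8 without negative-side column 3.

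**Figure D3:**
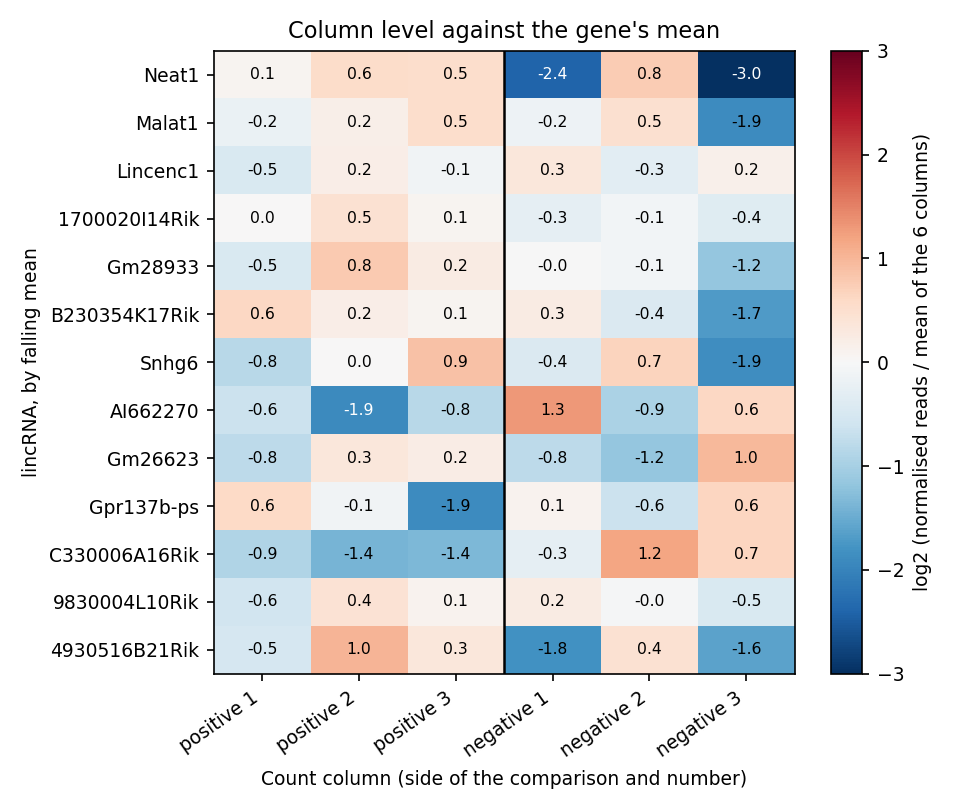
Log2 of normalised reads in each count column over the mean of the 6 columns, for the 13 members with recovered reads ordered by falling mean, with the vertical line between the sides. Negative-side column 3 holds the lowest value in 6 of 13 members, and C330006A16Rik is low in all 3 positive-side columns.

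Yam1 is a member by its gene type only. Its row (ENSMUSG00000098178, chromosome 17, 39846958 to 39848788) is called Gm42418 in GENCODE M21, a name RefSeq lists as a synonym of the 18S ribosomal RNA gene Rn18s-rs5, and it overlaps that gene's row in the table. A stretch of 1244 bases is identical to its transcript. Yam1 had a mean of 14189, with a log2 fold change of −0.29 (standard error 0.25, Wald p 0.247, adjusted p 0.811) in the authors' deposited table. Without Yam1 the members' median log2 fold change was 0.40, with 10 of 14 positive.

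Gm26917 (chromosome 17, 39843013 to 39846341) is reported apart as likely ribosomal RNA. It ends 616 bases before Yam1, and the row of Rn18s-rs5 starts between them, at 39846353. The authors' deposited table gave Gm26917 a mean of 37068, with a log2 fold change of −0.61 (standard error 0.23, Wald p 0.00748, adjusted p 0.537). Rn18s-rs5 itself had a mean of 55522, with a log2 fold change of −0.49 (standard error 0.24, Wald p 0.0398, adjusted p 0.769). The other 5 rows described here with them, Lars2 (0.36), Gm24245 and Gm24270 (0.18 each), Gm15564 (0.12) and Gm23935 (0.090), had positive log2 fold changes with p from 0.219 to 0.759 by the authors' Wald test. The mitochondrial ribosomal RNA mt-Rnr2 had the opposite sign, 0.56 (standard error 0.20, Wald p 0.00589, adjusted p 0.491) in the authors' deposited table. Gm26917 made up 0.804% of the sum of all means and Yam1 0.308%, against 0.131% for the other 14 members together.

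**Figure D4:**
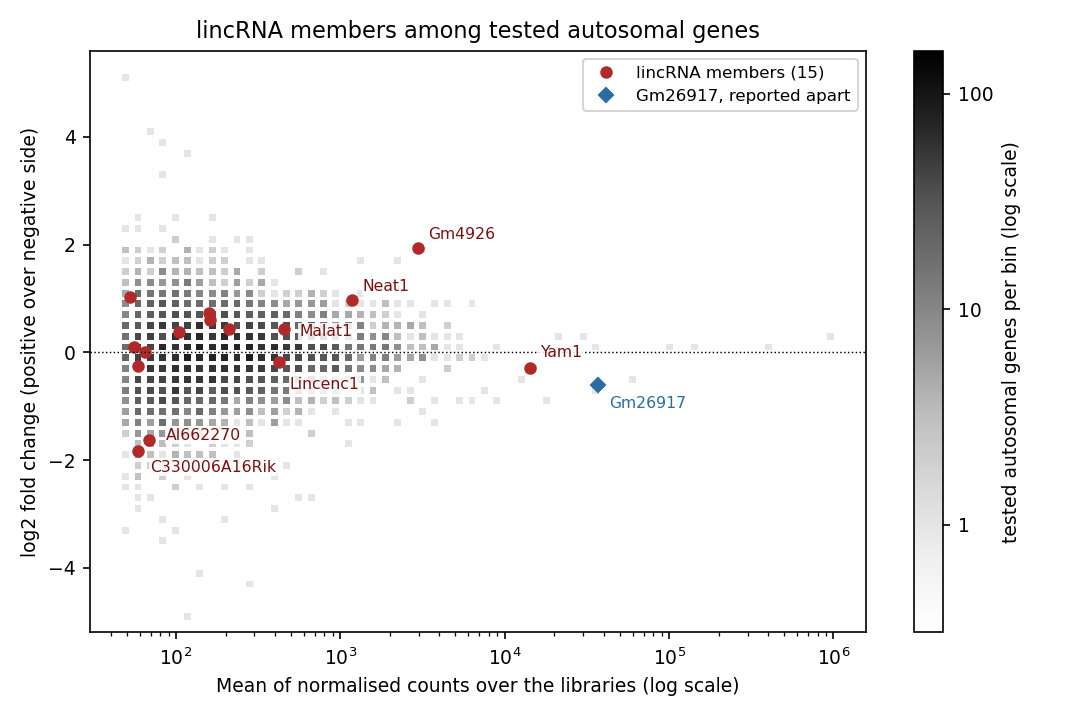
Mean of normalised counts (log scale) against log2 fold change from the authors' deposited table for the 15 members (circles) and Gm26917 (diamond), over a grey map of how many of 7175 tested autosomal genes with a mean of at least 50 fall in each bin. Gm4926, at a mean of 2964, has the highest log2 fold change of the members and C330006A16Rik, at 58.4, the lowest.

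The members' gene structures were compared with the annotation. In GENCODE M21, which holds 14 of them, the longest transcripts had a median of 2530 bases and 2.5 exons, and 4 of 14 had a single exon, against 6.93% of 5209 autosomal lincRNA genes and 8.47% of 20807 autosomal coding genes. The annotation still types 11 of 14 as lincRNA. The nearest coding gene lay within 10 kb of 10 of the 15 members. For the 14 members whose nearest coding gene was detected, 8 had the same sign of log2 fold change as that gene and 0 of those neighbours had p under 0.05 in the authors' deposited table.

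Other gene types annotated as noncoding were counted in the same way. Among 18 antisense and processed transcript genes with a mean of at least 50, 0 passed adjustment in the authors' deposited table, with 1 positive and 1 negative at p under 0.05. These were Kcnq1ot1, an imprinted antisense RNA (1.30, Wald p 0.0435, adjusted p 0.772), and Brip1os (−1.55, Wald p 0.0259, adjusted p 0.737). The median log2 fold change of the 18 was −0.017, and Tug1, a nuclear RNA with a mean of 134, had 0.33 (standard error 0.69). The list goes by gene type alone, so it is not a list of noncoding RNAs only. It holds Cct6a (mean 1608) and Tmem134 (mean 125), which bear names of coding genes. Gm15564 (mean 145930), described above beside the ribosomal RNA genes, is also in it. Of 10 genes of nuclear noncoding RNA decay, which act with the nuclear exosome, 0 had p under 0.05 in that table and the median was 0.25.

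The threshold of 50 divides genes of near-equal level. Just above it lie 4930516B21Rik (52.2), 9830004L10Rik (55.2) and C330006A16Rik (58.4), and just below it BC002059 (48.3), Gm26526 (44.2) and 9530082P21Rik (43.6), by the mean in the authors' deposited table. 9530082P21Rik had a log2 fold change of −1.72 (standard error 0.83), with 14.3, 28.4 and 18.3 normalised reads on the positive side, against 67.4, 35.7 and 97.8 on the negative side, which do not overlap. The 277 tested autosomal lincRNAs under the threshold had a median standard error of 3.46, so a modest change in most of them could not be told from 0. Of these, 15 (5.4%) had Wald p under 0.05, beside 6.21% of all tested genes, and 0 passed adjustment.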

How the data were processed

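RNA sequencing of single mouse blastocysts was analysed from the authors' deposited table of comparison results. The submitters' processing notes name STAR 2.4.0b, bedtools, SAMtools, featureCounts, Subread 2.0.1, DESeq2 1.34.0 and GRCm38, with no role or order, as the authors' tools. Strand setting, multi-mapping rule and direction of the comparison are not given in the sources used here. Per the file headers, the table's signal column holds the authors' mean of normalised counts over the libraries. Fold changes and their standard errors are deposited on the log2 scale. The Wald statistic is a score that the authors deposited, and the deposited p-value columns hold their two-sided p and its Benjamini-Hochberg adjustment over 15209 genes.

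The authors' own tests were used and only the members' rows are printed. Whole reads per count column were recovered, because a mean is a sum of whole reads with a fixed step per column. The 6 steps were fitted on 1900 genes with low means. A solution was kept when it gave the authors' log2 fold change to within 1e-05. In a test on simulated data, 199 of 200 genes with means of 45 to 110 were recovered, 37 of 40 at the level of the members from B230354K17Rik to Malat1 and 1 of 6 at the level of Neat1, and 0 of these solutions were wrong. At the level of Neat1 that rests on 1 solution, so it says little about the reads of Neat1. Reads amplified without molecular identifiers are not independent molecules, and a limit on a count of 0 covers counting error only. Columns of per-sample values that belong to no sample numbered 0. Of the gene IDs, 45143 of 45706 were found in GENCODE M21.

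The members and gene lists were chosen with earlier results of these data known. Members named are those with p under 0.05, the 10 highest means, the 5 largest log2 fold changes in each direction, given names, and 3 genes on each side of the threshold. The alternatives were other thresholds, adjustments, minimum means and chromosomes, the recovered reads, and leaving out each column. Calculations used Python 3.11.15, numpy 2.4.6, pandas 2.3.3 and numba 0.67.0.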

Additional observations from a re-analysis of the deposited data

Results flagged for a closer look

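Neat1 is the one member that the authors' deposited table gives a fold change but no p-value, at a mean of 1183 normalised counts, so no test of the authors covers it. Its recovered reads were 1764, 1716 and 1494 in positive-side columns, against 360, 1808 and 104 in negative-side columns. The recovery of reads was little tested at this level.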

How the results depend on the processing

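No member passed at an adjusted p-value under 0.01 or 0.1, nor with the adjustment rerun over every gene with a p-value, over autosomal genes, or over genes with a mean of at least 50, where the lowest adjusted p-values of a member were 0.699, 0.608 and 0.557. The count with an unadjusted p-value under 0.05 was 2, and became 4 of 34 with a minimum mean of 20, 3 of them negative, and 0 of 8 with a minimum of 100. It stayed at 2 with all chromosomes, with H19, Meg3, Rian and Mirg kept in, and without Yam1. The median log2 fold change of 0.38 became 0.19 with a minimum mean of 20, 0.24 with all chromosomes and 0.24 with those 4 genes kept in. Leaving out each count column in turn gave a median from 0.086 to 0.52 over the 13 members with recovered reads. For Neat1 that range was 0.49 to 3.08, for AI662270 −2.03 to −1.07 and for C330006A16Rik −2.15 to −1.46. The cause of these shifts was not tested. No paired analysis was possible because the table holds no value per sample and the count columns carry no replicate number. Leaving out Yam1, and leaving out columns for the median and for members other than C330006A16Rik and AI662270, were chosen after seeing the data. With 3 libraries a side, the 7 members with the lowest means had standard errors from 0.72 to 0.88 on the log2 scale, and counts in a column reached as low as 12 reads.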
